A study of Mus musculus with 150 samples.

Results

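The regions described are the bins of mouse autosomes 1 to 19 whose start lies below 13000000, which is about the first 10 Mb of covered sequence on each chromosome. They number 386 of 4806 autosomal bins and of 5331 bins in all, with 20 or 21 bins on most chromosomes and a median bin length of 500 kb. The 386 bins were chosen by position alone, and none was lost to a filter. The data are low-coverage DNA sequencing of sorted tumour cells, and the value of a bin is the deposited log2 ratio of a cell, moved so that the median of that cell's autosomal bins is 0. The groups are 3 microdissected tumours, named T1, T7 and T9, with 47, 48 and 50 cells kept of 50 each. All 3 came from 1 mouse of a mixed C57BL/6 x Sv129 background, labelled KP_30w_ND and collected 30 weeks after induction, with Trp53flox/flox, Rosa26LSL-tdTomato and Rosa26LSL-Luciferase among its strains. The labels name AdSPC-Cre, a virus that brings Cre recombinase under a surfactant gene promoter, or AdCMV-FlpO as the agent of induction, without saying which one this mouse received, and they give alveolar type 2 (AT2) cells of the lung as the source. Each tumour is thus 1 sample, its cells are not replicates, no normal cells are used here, and no test between tumours was made. DNA shows no marker expression, so the labelled cell type could not be checked. The kept cells held 20.5 to 170 Mb of sequenced bases for T1 (median 97.7), 24.6 to 140 Mb for T7 (median 69.3) and 43.3 to 82.1 Mb for T9 (median 56.7), and the median noise of a cell between neighbouring bins was 0.191, 0.146 and 0.133. Intervals for shares of cells are exact Clopper-Pearson 95% intervals and cover counting error only.

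Mouse chromosomes carry the centromere at one end, so the start of every autosomal sequence lies next to centromeric satellite repeats that the assembly leaves as a gap. Sequence beside centromeres is often rich in segmental duplications and in families of near-identical genes, where short reads cannot be placed in 1 position. Tumours often gain or lose a whole chromosome or 1 side of a break within it. On a chromosome with its centromere at the end, the stretch nearest to it is the piece that stays beside the centromere when the remainder breaks off.

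One run of these bins held repeated gene sequence, and 3 of its promoters are printed here because the run was high in all 3 tumours. They are RefSeq promoters of genes in chr14:3000001-7478101 (build GRCm38.p6), 300 bases around the gene start in each gene's own direction, with capitals where a base differs from that of Gm3127. Gm3127 lies on the plus strand at chr14:4164843-4165142, Gm3159 on the plus strand at chr14:4397339-4397638 and Gm3685 on the minus strand at chr14:7044858-7045157.
Gm3127: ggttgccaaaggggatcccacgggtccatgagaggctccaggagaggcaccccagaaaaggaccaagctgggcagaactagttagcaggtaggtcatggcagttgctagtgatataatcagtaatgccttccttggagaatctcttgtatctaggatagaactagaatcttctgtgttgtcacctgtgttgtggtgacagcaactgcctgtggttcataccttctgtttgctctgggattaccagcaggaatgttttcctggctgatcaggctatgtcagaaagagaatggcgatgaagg
Gm3159: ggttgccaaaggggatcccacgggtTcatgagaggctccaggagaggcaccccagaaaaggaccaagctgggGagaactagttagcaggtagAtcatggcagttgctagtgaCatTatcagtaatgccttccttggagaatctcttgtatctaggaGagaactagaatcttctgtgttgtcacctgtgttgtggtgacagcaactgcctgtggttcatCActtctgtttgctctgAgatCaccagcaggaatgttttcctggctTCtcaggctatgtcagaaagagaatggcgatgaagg
Gm3685: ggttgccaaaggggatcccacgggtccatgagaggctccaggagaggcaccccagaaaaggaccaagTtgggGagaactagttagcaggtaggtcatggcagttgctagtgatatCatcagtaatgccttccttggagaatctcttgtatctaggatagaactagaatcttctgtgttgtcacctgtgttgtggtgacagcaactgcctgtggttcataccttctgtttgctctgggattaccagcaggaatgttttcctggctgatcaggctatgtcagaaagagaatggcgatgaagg
Gm3159 differed from Gm3127 at 12 of 300 bases and Gm3685 at 3 of 300, although Gm3685 lies 2.65 Mb farther along than Gm3159. Laid base by base at the gene start, 12 other promoters of the run were 96% to 99% identical to that of Gm3127. Of the run's 98 listed promoters, 63 (64.3%) shared at least 50% of their 31-base words with a promoter elsewhere on the autosomes that does not overlap them. This held for 3 of 31 promoters (9.68%) in the remaining bins of the same stretch and for 64 of 1552 (4.12%) in the stretches of the chromosomes other than 14 and 18, whose promoters were not analysed here. Outside the stretches the share was 632 of 24067 (2.63%).

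The 386 bins lay close to the rest of the genome on the whole, and a few stretches stood well apart. Over the 386 bins the median level came to 0.00 for T1, -0.04 for T7 and 0.02 for T9, against 0.02, -0.02 and 0.00 over the 4420 other autosomal bins. A bin counts as gained where its median over cells reaches log2(2.5/2), which is 0.32, and as lost at log2(1.5/2), which is -0.42. In T1, 28 of the 386 bins (7.25%) were gained, against 11% of all autosomal bins, and 40 (10.4%) were lost, against 12.3%. In T7, 36 bins (9.33%) were gained, against 10.8% of all, and 1 (0.259%) was lost, against 0.25%. In T9, 25 bins (6.48%) were gained, against 6.28% of all and 6.27% of those outside the stretches, and 1 (0.259%) was lost, against 4.22% of all and 4.57% of those outside. The shares were thus at or below those of all autosomal bins, with 1 exception above it by a small margin in each of T7 and T9. The scaled spread over cells of a bin had a median of 0.19 for T1 and 0.16 for both T7 and T9 in the stretches, against 0.20, 0.17 and 0.17 outside.

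Each stretch was also set against the median of the rest of its own chromosome in the same cell, and it counts as apart where the median of that difference over cells is 0.20 or more in size. In T1, 5 of 19 stretches were apart (26.3%), against 3.04% of the 230 consecutive 10 Mb windows of all autosomes. In T7 it was 0 of 19 (0%), with 0% of all windows. In T9 it was 3 of 19 (15.8%), against 7.83% of all windows. The last complete window of each chromosome was apart in 0 of 19 cases for T1 (0%) and in 4 of 19 for T9 (21.1%), and the inner windows in 2 of 192 (1.04%) and 11 of 192 (5.73%). Of the 7 T1 windows that stood apart, 5 were thus at the chromosome start, against 3 of 18 for T9. The T1 count rested on the processing, since the stretches of chromosomes 6, 7, 14 and 19 were no longer apart under a stricter noise filter, which left 4 T1 cells, those of chromosomes 9 and 19 by raw depth, and those of chromosomes 6, 7 and 9 against adjoining bins. Over all 19 stretches the median difference stayed small, with -0.04 for T1, -0.03 for T7 and 0.02 for T9.

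**Figure D1:**
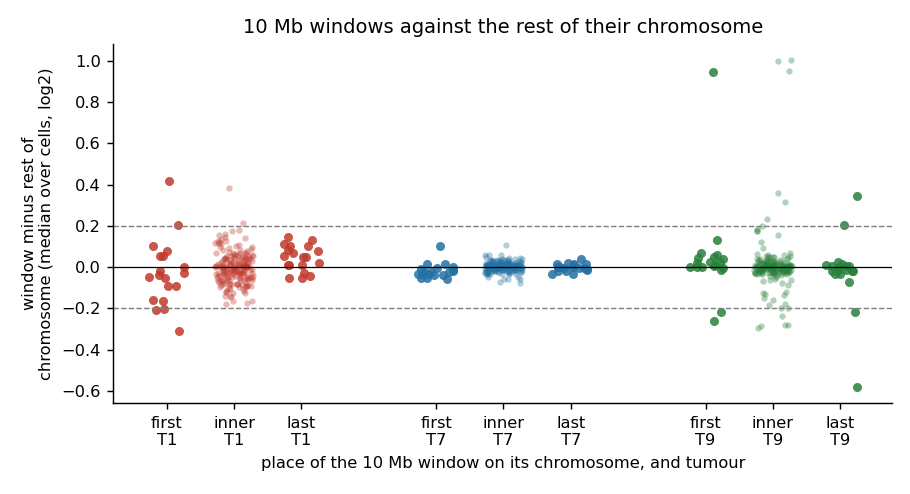
Each point is a 10 Mb window of an autosome, plotted as its median over cells minus the rest of its chromosome (log2), by place on the chromosome (first, inner or last) and by tumour. Dashed lines mark 0.20 and -0.20; of the first windows 5 lie outside them in T1, 0 in T7 and 3 in T9.

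Counted in single cells, a stretch is called gained or lost where its median in that cell passes the same thresholds, and a tumour carries the call where at least 20% of its cells do. T1 had 4 gained stretches (21.1%; 14.8% of all 10 Mb windows) and 3 lost ones (15.8%; 20% of windows). T7 had 2 gained (10.5%; 13.5% of windows) and 0 lost (0%; 1.74% of windows). T9 had 1 gained (5.26%; 6.09% of windows) and 0 lost (0%; 3.91% of windows). A T1 cell carried a median of 3 called stretches and at most 8, a T7 cell 2 and at most 4, and a T9 cell 1 and at most 7. No called stretch at all was found in 1 T1 cell, 11 T7 cells and 4 T9 cells.

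**Figure D2:**
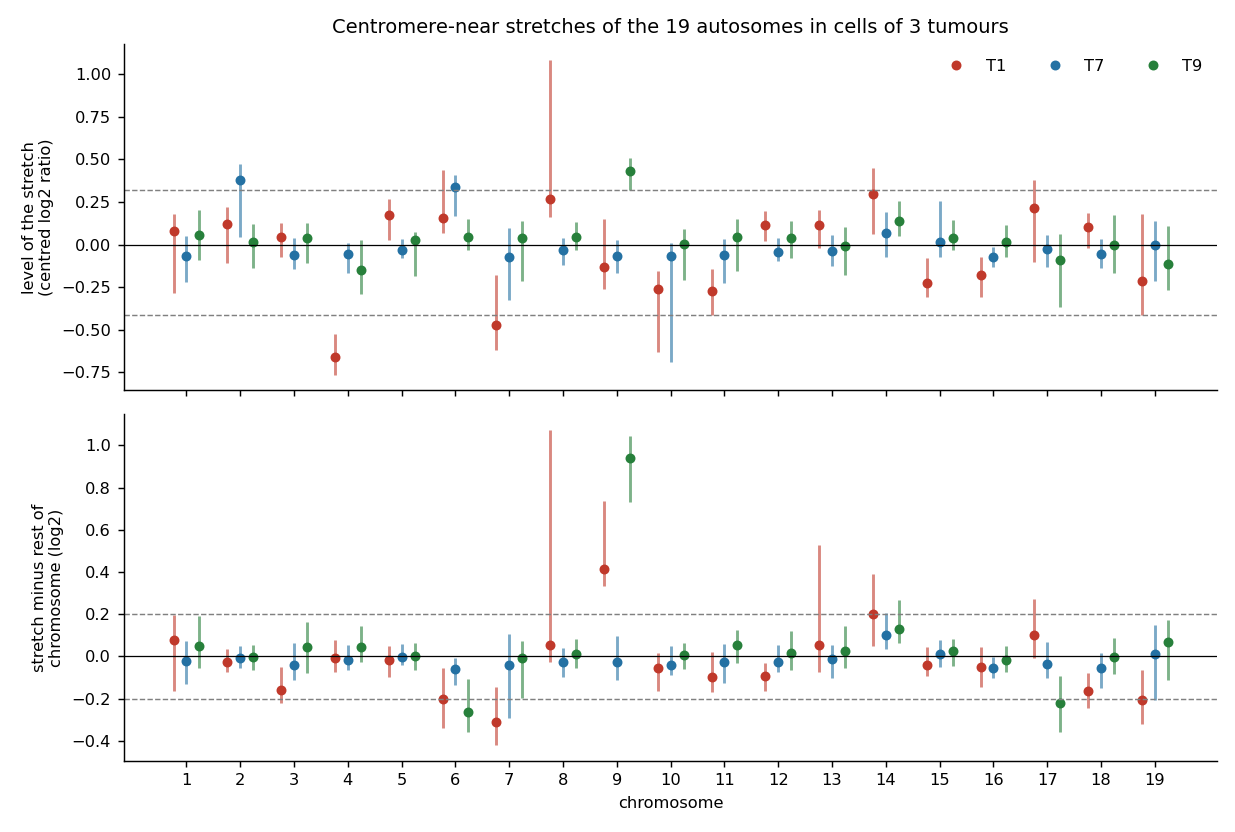
Level of each centromere-near stretch (above) and its difference from the rest of its chromosome (below), both as log2, for the 19 autosomes; points are medians over cells of T1, T7 and T9 and lines span the 10th to 90th percentile of cells. Dashed lines mark the call thresholds above and 0.20 and -0.20 below; the stretch of chromosome 9 in T9 lies at 0.43 and 0.94 above its rest, and that of chromosome 8 in T1 has the longest line.

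In a cell, the stretch, the rest of its chromosome or both could carry a call. Over the 893 pairs of T1 cell and stretch, the stretch alone was called in 84, the rest alone in 106, both the same way in 81 and both in opposite ways in 0. T7 had 9, 21, 67 and 2 such pairs of 912, so most of its calls took in the stretch and the rest together. T9 had 13, 28, 18 and 40 of 950, and all 40 opposite pairs were on chromosome 9.

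The stretch of chromosome 9 (chr9:3491634-13324303, 20 bins) showed the widest gap. In T9 its level over the 50 cells had a lowest value of -0.07, a median of 0.43 and a highest of 0.91 (SD 0.14), against a median of -0.50 (SD 0.12) in the rest of the chromosome. It was above the rest in 50 of 50 cells, by a median of 0.94 (SD 0.22), and it was gained in 44 of 50 cells (88%, exact 95% interval 75.7 to 95.5), or in 38% with stricter thresholds of 0.45 and -0.70. In T1 the stretch lay at -0.36 to 0.19 with a median of -0.13 (SD 0.15), against -0.59 (SD 0.08) in the rest, and was above it in 47 of 47 cells, by a median of 0.41 (SD 0.17). The rest was called lost in 44 T1 and 43 T9 cells, and the stretch in 0 of either, which allows shares of up to 6.38% and 6% as 3 cells of the total (upper ends of the exact intervals 7.55% and 7.11%). In T7 stretch and rest both lay near 0, at -0.07 (SD 0.11) and -0.02 (SD 0.15). T1 and T9 thus shared a stretch that stood above a lowered remainder, at levels whose ranges overlapped between -0.07 and 0.19. In the deposited ratio the level did not end with the stretch, since the next 20 bins (chr9:13414304-23366650) differed from its last 10 by a median of -0.04 in T1 and 0.02 in T9. By raw depth they were 0.32 above those 10 bins in T1 (44 of 47 cells) and differed by -0.02 in T9. Against adjoining bins the stretch was not apart in T1 (0.05) or T9 (-0.01), and by raw depth its T1 difference from the rest was 0.16. Past the stretch, the next 10 Mb windows were gained in 92%, 90% and 90% of T9 cells, and the window after them was lost in 88%. In T1 the same next windows were lost in 0%, 46.8% and 97.9% of cells. The part above the lowered remainder was thus wider than the stretch and ended at different places in T1 and T9.

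Within the stretch of chromosome 9, T9 changed level at 5458168 and again at 8407969. A smaller step between them, at 6933068 from 0.52 to 0.65, was not used to divide the blocks. Its first 4 bins (chr9:3491634-5458167) lay at 0.10 (SD 0.13), and 1 of 50 cells was gained there. They hold 8 protein-coding genes, among them Gria4, a subunit gene of a glutamate receptor, and Casp1, Casp4 and Casp12, caspase genes of the inflammatory branch. The next 6 bins (chr9:5458168-8407968, 2.95 Mb) lay at 0.61 (SD 0.16), with a lowest cell at -0.05 and a highest at 1.07, and 48 of 50 cells were gained. The last 10 bins (chr9:8407969-13324303) lay at 0.44 (SD 0.14), gained in 44 of 50. The middle block exceeded the first by a median of 0.53 (SD 0.12) and the last by 0.18 (SD 0.08), each in 49 of 50 cells, whereas the same differences were 0.01 and 0.01 in T1 and 0.03 and 0.03 in T7. By raw depth the T9 differences were 0.54 and 0.19, but the middle block was then higher in the other tumours too, by 0.28 and 0.25 in T1 (44 of 47 cells each) and by 0.12 and 0.12 in T7 (43 and 44 of 48).

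The middle block of chromosome 9 holds 20 protein-coding genes. They are Pdgfd, which encodes a platelet-derived growth factor, a run of matrix metalloproteinase genes that cut extracellular matrix (Mmp13, Mmp12, Mmp1b, Mmp3, Mmp1a, Mmp10, Mmp8, Mmp27, Mmp20 and Mmp7), Birc2 and Birc3, whose products inhibit cell death, Yap1, the transcriptional coactivator held back by the Hippo pathway, and Ddi1, Dync2h1, Dcun1d5, Tmem123, Cfap300 and Cep126. The last block holds 6, Trpc6, Pgr, Arhgap42, Cntn5, Jrkl and Ccdc82. In T9 the bin with Birc2 and Birc3 lay at 0.64 and that with Yap1 at 0.63, against 0.38 to 0.52 in the 10 bins after it. One bin of the middle block, chr9:6441435-6933067, was lower than its neighbours, at 0.29 in T9 and -0.38 in T1. The files list the dynein gene Dync2h1 for it, but most of that gene (chr9:6928550-7178306) lies in the next bin. In that next bin 49 T9 cells were gained.

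**Figure D3:**
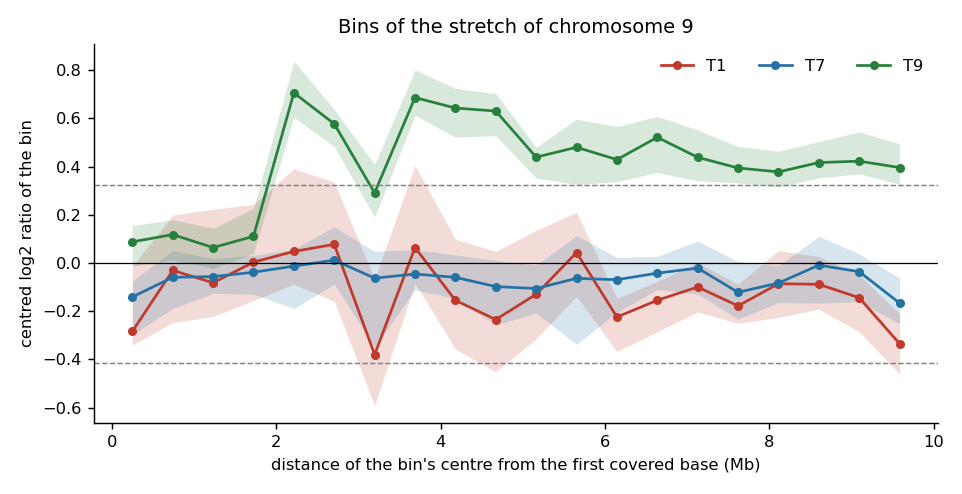
Centred log2 ratio of the 20 bins of the chromosome 9 stretch against distance from the first covered base (Mb); lines join medians over cells of T1, T7 and T9 and bands span the middle 50% of cells. T9 is near 0.1 in its first 4 bins, highest in 5 of the next 6 and near 0.4 after that, and the T1 band is wide in the first 12 bins and narrow in the last 8.

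In T1 the same stretch was uneven in another way, which its median hides. The spread over cells was 0.25 to 0.33 (SD) in each of the first 12 bins (chr9:3491634-9391235) and 0.16 to 0.23 in each of the last 8 (chr9:9391236-13324303). This bound was set after the values were seen, as the end of the first run of bins with an SD of at least 0.25. The lower end of 0.25 in the first 12 bins thus follows from that rule. Wide bins also occurred past the stretch, as at chr9:14907156-15404772, with an SD of 0.34 and 12 T1 cells gained. Over the 12 bins, the 47 T1 cells lay at -0.39 to 0.42 with a median of -0.14, and 10 of them were gained (21.3%, 10.7 to 35.7) and 8 others lay between 0 and the gain threshold. By raw depth 3 of the 47 were gained, a share of 6.38%, as it also was with cells centred on their mode. Over the last 8 bins, the same cells lay at -0.40 to -0.04 and 0 of 47 were gained. The levels of the 2 parts were unrelated over T1 cells (Spearman rho 0.00), against rho 0.50 in T7 and 0.55 in T9, and they share the library of the cell. Pgr, the progesterone receptor gene, and Arhgap42, a GTPase-activating protein gene, lie at the end of the 12 bins, and the T9 step and the T1 bound are 2 bins apart. In T7, 1 of 48 cells was gained over the 12 bins (2.08%, 0.0527 to 11.1).

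The T1 cells that were gained in the first 12 bins of chromosome 9 were others than those gained in the stretch of chromosome 8 (chr8:3000001-13378402), at the threshold used. That stretch had the widest range of all, with T1 cells from 0.06 to 1.17 and a median of 0.27 (SD 0.36), and 17 of 47 cells were gained (36.2%, 22.7 to 51.5), a share that became 83.0% by raw depth and 57.4% with looser thresholds. Of the 10 cells gained in the chromosome 9 bins and the 17 gained on chromosome 8, 0 were the same, and 20 of the 47 cells were in neither set. With the looser gain threshold of 0.25, a count chosen after seeing the data, 5 cells passed both, of 11 on chromosome 9 and 27 on chromosome 8. Over T1 cells, the stretch of chromosome 8 ran against the rest of its own chromosome (rho -0.51), whereas rho was 0.62 in T7 and 0.55 in T9. In T7 and T9, 0 of 48 and 0 of 50 cells were gained there, with highest levels of 0.14 and 0.23. In T1 the next 10 Mb window was also gained in 36.2% of cells, and the window after it in 0%. The T1 gain was thus wider than the stretch. The T1 gain was weaker in the first 4 bins (chr8:3000001-4976838), which lay at -0.04 (SD 0.22) with 4 of 47 cells gained, against 0.33 (SD 0.38) and 25 of 47 in the other 17 bins. By raw depth the first 4 bins lay 0.07 above the others, so this inner step depends on how the ratio was made.

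**Figure D4:**
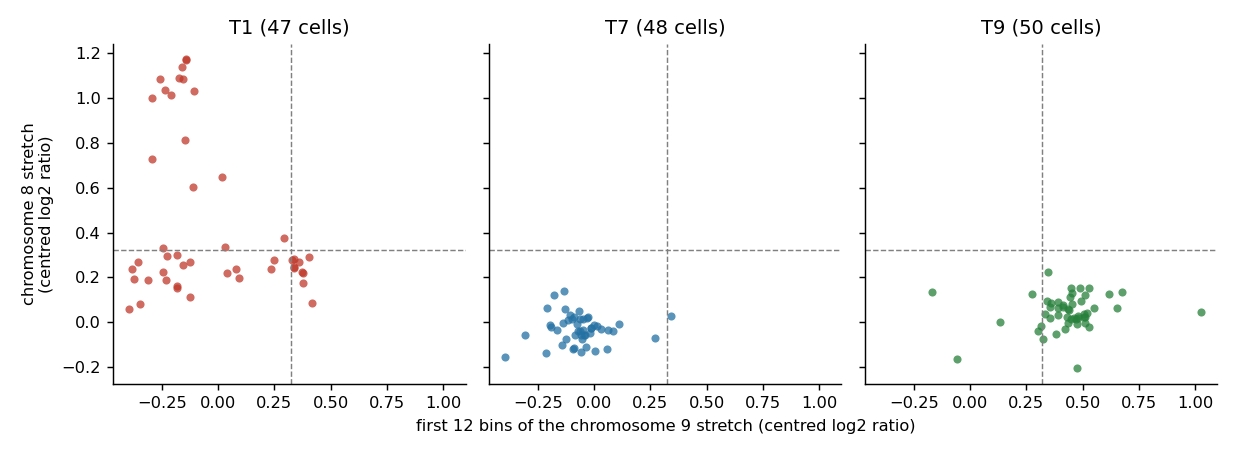
Each point is a cell, with the level of the first 12 bins of the chromosome 9 stretch across and that of the chromosome 8 stretch up, both as centred log2 ratio, in T1, T7 and T9; dashed lines mark the gain threshold. In T1 no point lies beyond both lines at this threshold, and 44 of 50 T9 cells lie right of the line at chromosome 8 levels of at most 0.23.

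Losses on chromosomes 10 and 13 fell mostly or wholly in T1 cells with a gained chromosome 8 stretch. The stretch of chromosome 13 (chr13:3000001-13090477) was neither gained nor lost in any of the 47 T1 cells, at -0.12 to 0.27, whereas the rest of chromosome 13 was lost in 10 cells. In those 10 cells the stretch lay at -0.10 to 0.11 and the rest at -1.32 to -0.44. Past the stretch, the next 10 Mb windows were lost in 0% and 0% of T1 cells, and the window after them in 23.4%. The part of chromosome 13 without loss was thus wider than the stretch. All 10 had the chromosome 8 stretch at 0.998 to 1.17, were the only cells with it at 0.90 or more, and had the chromosome 10 stretch at -0.83 to -0.50. Their first 12 bins of chromosome 9 lay at -0.29 to -0.11, with 0 of 10 gained. These 10 were picked by the level of the rest of chromosome 13, and the values are given as a description.

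The stretch of chromosome 10 (chr10:3100001-13053443) was lost in 13 of 47 T1 cells (27.7%, 15.6 to 42.6; 6.38% with stricter thresholds and 0% with the stricter noise filter), and the rest of that chromosome in 13. Of those 13 cells, 11 were gained in the stretch of chromosome 8. T1 cells ranged from -0.83 to -0.10, with a median of -0.26 (SD 0.20). In T7, 6 of 48 cells were lost (12.5%, 4.73 to 25.2), down to -0.95, and in T9 0 of 50. Esr1, the estrogen receptor gene, and Lats1, a kinase gene of the Hippo pathway, lie here and 12 T1 cells and 6 T7 cells had them within a lost segment.

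The very first bin of chromosome 10 (chr10:3100001-3589097, with H60c, Ppp1r14c and Iyd) did not follow the rest of its stretch. It had the lowest weight of all 386 bins, 0.498, and the widest spread, with T1 cells at -2.03 to 1.34, a median of 0.35 and an SD of 0.71. T7 cells lay at -2.59 to 1.27 with a median of -0.79 (SD 0.72), and T9 cells at -1.13 to 1.14 with a median of -0.68 (SD 0.36). It was gained in 24 of 47 T1 cells and lost in 36 of 48 T7 and 44 of 50 T9 cells. In T1 its level rose with the noise of the cell (rho 0.64), against rho -0.08 in T7 and 0.05 in T9. By raw depth it lay above the autosomal median in all 3 tumours, at a log2 of 2.25, 1.01 and 1.07, so depth and deposited ratio had opposite signs in T7 and T9.

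The stretch of chromosome 7 (chr7:3000001-13131725, 20 bins) was the lowest against its rest. T1 cells ranged from -0.88 to 0.10 with a median of -0.47 (SD 0.20), against -0.18 (SD 0.15) in the rest. The difference was -0.31 (SD 0.13), below 0 in 44 of 47 cells. The stretch was lost in 27 cells (57.4%, 42.2 to 71.7) and the rest in 1. In T7 the difference was -0.04 (SD 0.14) and in T9 -0.01 (SD 0.11). The stretch holds vomeronasal receptor genes, a large family of pheromone receptors with many near copies. In its 10 bins with Vmn2r genes the difference from the rest was -0.36 for T1, -0.10 for T7 and -0.07 for T9, against -0.24, 0.04 and 0.02 in its other 10 bins, so the Vmn2r bins were lower in each tumour and T1 was low in both kinds. The 5 bins with genes of the other family, Vmn1r, did not show this in T1 or T9, at -0.23, -0.04 and 0.07, against -0.32, 0.01 and -0.05 in the other 15 bins. Without the bins of lowest weight, 6.38% of T1 cells were lost in the stretch, by raw depth 4.26%, with stricter thresholds 2.13% and with the stricter noise filter 0%. The T1 difference was -0.12 without the bins of lowest weight and -0.07 with the stricter noise filter, so the stretch was then not apart. Of the 187 promoters listed in the stretch, 29 (15.5%) had a near copy elsewhere.

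The stretch of chromosome 14 (chr14:3000001-13448902) held the bins that were gained alike in T1, T7 and T9. There were 9 of them among the 386 (2.33%), and the 9 form 1 unbroken run, chr14:3000001-7478101, the run of the promoters above. Of all 4806 autosomal bins, 150 (3.12%) were past a threshold alike, which counts bins gained in all 3 tumours or lost in all 3. The level over the run was 0.62 (SD 0.26) in T1, 0.68 (SD 0.31) in T7 and 0.76 (SD 0.19) in T9, and 45 of 47, 43 of 48 and 50 of 50 cells were gained. By raw depth the run lay 3.13, 2.94 and 3.12 times the autosomal median of the cell. The next 12 bins (chr14:7478102-13448902) lay at 0.09 (SD 0.12), -0.12 (SD 0.15) and -0.04 (SD 0.10), with 0 cells gained in each tumour. Bin weights were at most 0.623 in the run and reached 0.828 in the other 12 bins.

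The files list 57 genes in the run on chromosome 14, of which 53 carry a provisional Gm name. Of the 3 genes whose promoters are printed above, the files list Gm3159 for these bins, whereas Gm3127 and Gm3685 come from the RefSeq table alone. Run and remaining bins moved together only weakly over cells, with rho 0.40 for T1, 0.36 for T7 and 0.30 for T9, and the level of the run fell with a cell's depth in T7 (rho -0.46). Since the tumours come from 1 mouse and normal cells are not used here, a copy number that the mouse was born with, reads placed from several copies, and a change in the tumours cannot be told apart. Because the run fills 9 of 21 bins, it also lifted the stretch as a whole, which was 0.20 (SD 0.16), 0.10 (SD 0.08) and 0.13 (SD 0.11) above its rest in T1, T7 and T9 and was called gained in 22 of 47 T1 cells (46.8%, 32.1 to 61.9), 0 of 48 T7 cells and 2 of 50 T9 cells. Without the bins alike in all 3 tumours the T1 difference was -0.04 and 0% of T1 cells were gained, and with the stricter noise filter they were 0.14 and 0%. The level of the T1 stretch rose with the noise of the cell (rho 0.36), and the part of noise in the result was not tested.

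**Figure D5:**
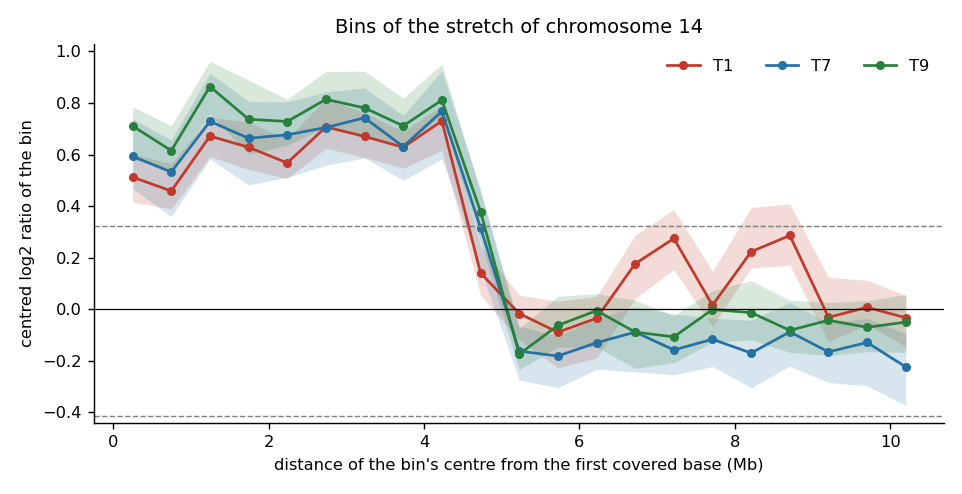
Centred log2 ratio of the 21 bins of the chromosome 14 stretch against distance from the first covered base (Mb), as medians over cells with bands for the middle 50% of cells of T1, T7 and T9. The first 9 bins lie above the upper dashed line, the gain threshold, in every tumour, the next lies at 0.14, 0.32 and 0.38, and the others lie below it.

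On chromosome 6 (chr6:3050001-13123749) the stretch lay below the rest in T1 and T9. In T9 it was at 0.04 (SD 0.13), against 0.30 (SD 0.14) in the rest, a difference of -0.26 (SD 0.10) that was below 0 in 48 of 50 cells, and the rest was gained in 17 of 50. The T9 gain took in only the far side of the chromosome, since the first 7 windows of 10 Mb were gained in 4% of cells each and the next 7 in 72% to 86%. In T1 it was at 0.16 (SD 0.14), against 0.40 (SD 0.13), a difference of -0.20 (SD 0.12) in 45 of 47 cells below 0. The rest was gained in 37 of 47 T1 cells and the stretch in 10 of 47 (21.3%, 10.7 to 35.7). That share was 14.9% with cells centred on their mode, 4.26% by raw depth and with stricter thresholds, and 0% with the stricter noise filter. Without the bins alike in all 3 tumours, the difference was -0.09 in T1 and -0.05 in T9. Within the stretches all such bins lie on chromosome 14, so this setting took bins only from the rest of chromosome 6. The change thus came from a lower rest, and the stretch itself stayed as it was. Against adjoining bins the difference was -0.07 in T1 and 0.02 in T9, and neither was apart in these settings. In T7 stretch and rest lay close together, at 0.34 (SD 0.12) and 0.38 (SD 0.13), and 26 of 48 cells were gained in the stretch (54.2%, 39.2 to 68.6), or 6.25% with stricter thresholds. Col1a2, a gene of fibrillar collagen, lies in the stretch and was in a gained segment in 13 cells of T1, 34 of T7 and 2 in T9.

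Chromosome 17 (chr17:3000001-13255953) was apart in T9 and called in T1. In T9 it lay at -0.09 (SD 0.19), against 0.10 (SD 0.12) in the rest, a difference of -0.22 (SD 0.12) that was below 0 in 46 of 50 cells and came to -0.08 against adjoining bins. The later 10 Mb windows of T9 differed from their rest by -0.14, -0.13, -0.12, -0.20, 0.02, 0.36, 0.32 and 0.34, in order. Those at 0.32 or more were gained in 44% to 56% of cells, so the low level was not limited to the stretch. In T1 the stretch lay at -0.23 to 0.47 with a median of 0.21 (SD 0.20), and 10 of 47 cells were gained (21.3%, 10.7 to 35.7). This call just passed 20% of cells, and the share was 59.6% by raw depth, 14.9% with weighted means, 10.6% with mode centring, 2.13% with stricter thresholds or starts below 23000000 and 0% with the stricter noise filter. The last bin (chr17:12734470-13255953) was low in every tumour, with -0.27, -0.22 and -0.27 for T1, T7 and T9, whereas the bin before it lay at 0.31, -0.01 and -0.09. It holds Airn, a noncoding RNA gene beside the imprinted Igf2r, and Tcp10b, Smok2a and Smok2b of the t-complex, a region known for distorted transmission in mice. From this bin up to 14156048, just outside the stretch, the level came to -0.52 for T1, -0.55 for T7 and -0.52 for T9.

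Chromosome 19 (chr19:3000001-13315755) was apart in T1 alone, with stretch cells at -0.62 to 0.44 and a median of -0.22 (SD 0.26), against -0.09 (SD 0.24) in the rest. The difference was -0.21 (SD 0.11), below 0 in 44 of 47 cells. By raw depth its sign turned, to 0.12, and with the stricter noise filter the difference was -0.07. The low part was its first 13 bins (chr19:3000001-9814603), at -0.26 in T1, against -0.09 in the other 7 bins, and the 2 parts moved together over cells (rho 0.83). Of the 307 promoters listed in this stretch, 2 (0.65%) had a near copy elsewhere.

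The stretches of chromosomes 2 and 4 went with their whole chromosome. On chromosome 2 (chr2:3050001-13483022), 33 of 48 T7 cells were gained (68.8%, 53.7 to 81.3; 29.2% with stricter thresholds) at a median of 0.38 (SD 0.17), against 0.39 (SD 0.17) in the rest, and stretch and rest rose together over cells (rho 0.88). On chromosome 4 (chr4:3050001-13008522), 45 of 47 T1 cells were lost (95.7%, 85.5 to 99.5; 42.6% with stricter thresholds) at -0.66 (SD 0.11), against -0.69 (SD 0.10) in the rest. The T1 bins farthest from 0 among the 386 were mostly here, 4 of the 5, with the lowest at -0.82 (chr4:10518892-11016817, Plekhf2), and the other was in the repeated run of chromosome 14. In T7 and T9 those farthest from 0 lay in that run, 4 of 5 and 5 of 5, with the first bin of chromosome 10 as the remaining one in T7.

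The remaining 9 stretches, of chromosomes 1, 3, 5, 11, 12, 13, 15, 16 and 18, were neither apart nor called in any tumour. Their levels ran from -0.27 to 0.17 in T1, -0.07 to 0.01 in T7 and -0.01 to 0.06 in T9, and their differences from the rest from -0.17 to 0.08, -0.05 to 0.01 and -0.02 to 0.06. At most 4, 3 and 4 cells carried a call on any of them. T1 thus spread over a wider range here as well, and T7 and T9 stayed near 0. Some of these stretches were apart in other settings. By raw depth they were those of chromosomes 3, 5 and 16 in T1 and of chromosomes 1, 3 and 18 in T9. Against all other autosomal bins they were those of chromosomes 11 and 15 in T1.

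A set of 42 genes known in cancer, lung or signalling, all of them in the stretches, is described by role. Their place in the stretches reflects how the list was made and is no result. Irs2, Col4a1 and Col4a2 share a bin, as do Lyn, Mos and Plag1, and also Birc2 and Birc3, so the genes are not separate counts. The list was drawn up with earlier results of these data known. In T1, 7 were in a gained segment in at least 20% of cells and 7 in a lost one, against 11.7% and 20.1% of all autosomal bins and 16.1% and 15.5% of the 386. In T7, 4 were gained, against 13.6% of all bins and 16.1% of the 386, and 0 lost, against 2.52% and 0%. In T9, 4 were gained, against 7.07% and 10.6%, and 0 lost, against 4.2% and 0%. Taken as segment means, the median gene lay at -0.16 for T1, -0.03 for T7 and 0.02 for T9, against 0.09, -0.03 and 0.02 over all autosomal bins. These are not the bin medians given earlier. Listed genes of the same chromosome had the same segment level, so the median gene depends on which chromosomes the list covers.

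Among the 13 kinase and receptor genes, Insr, the insulin receptor gene, and Irs2, an adaptor of insulin signalling, were in the gained segment of chromosome 8 in 15 of 47 T1 cells, at a median of 0.20 (SD 0.32). Their own bins lay at 0.19 and 0.65. Insr lies in the first 4 bins of the stretch, over which 4 of 47 T1 cells were gained. Its call is that of a segment of at least 10 Mb, which took in the later bins. Lyn, a kinase of the Src family, and Mos, a kinase that acts upstream of MAP kinase in oocytes, followed chromosome 4 down in 45 T1 cells, at -0.67 (SD 0.09). Prkcq, a protein kinase C gene, followed the gain of chromosome 2 in 35 T7 cells, at 0.39 (SD 0.16). Lats1 is given above with chromosome 10, and the other 7 were in no called segment.

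Of the 11 transcription factor genes, Plag1 was lost with chromosome 4 in 45 of 47 T1 cells, Gata3 followed chromosome 2 in 35 T7 cells and Esr1 was lost with chromosome 10 in 12 of 47 T1 cells. Of the 10 tumour suppressor and chromatin genes, Chd7, a chromatin remodeller gene, was lost in 45 of 47 T1 cells and Ing1, a histone-reader gene, was gained in 15 of 47. Fhit, a gene at a fragile site, fell in a gained segment in 17 T1, 10 T7 and 21 T9 cells, but its own bin lay at 0.27, -0.16 and -0.11, and the segment took in the repeated run at the start of chromosome 14.

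Of the 5 Hippo and survival genes, Yap1, Birc2 and Birc3 were gained in 44 T9 cells, with a segment level of 0.44 (SD 0.14), and Ccne2, a cyclin gene, was lost in 45 of 47 T1 cells. All 3 matrix genes were gained, Col4a1 and Col4a2, which encode basement membrane collagen, in 15 of 47 T1 cells and Col1a2 as given above.

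By position within the stretch, the first bins were the lowest in T1 and T7 but not in T9. The first bin of the 19 chromosomes had a median difference from the rest of -0.15 for T1, -0.07 for T7 and -0.01 for T9, and was below the rest on 13, 16 and 11 of 19 chromosomes. The later positions had medians of -0.14 to 0.05, -0.04 to -0.01 and -0.02 to 0.05. The weight of the first bins had a median of 0.75, against 0.79 to 0.81 at the later positions. The correction that leads from raw depth to the deposited ratio took a median of 0.09 (log2) off the 386 bins, against -0.02 for the other autosomal bins.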

How the data were processed

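Single tumour cells were sequenced at low depth, and the submitters' processing notes name BWA 0.7.17 as aligner and GRCm38 as genome build. The authors deposited the coverage signal of each bin as mean depth per base, a log2 ratio per bin and cell, and a weight score per bin. The making of the log2 ratio, of its reference and of the weight score was not given in the sources used here. One item of the genotype label is not reported here.

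The bins, stretches, gene lists and alternatives were chosen with earlier results of these data known. Cells were kept where at least 80% of autosomal bins had depth and noise did not exceed 0.267 (3 scaled median absolute deviations above the median over cells), and each kept cell was centred on its autosomal median. A doubling of the whole genome cannot be seen after this. The level of a stretch is the median of its bins in a cell, and the rest is the median of the other bins of that chromosome. A gene took the mean of the segment holding its middle, with segments of at least 5 bins and 10 Mb from optimal partitioning. Stretches apart or called in any tumour, bins past a threshold in all 3 tumours, the 5 bins farthest from 0 per tumour and listed genes whose segment was called in 20% of cells or more are named. Bounds within stretches were set after values were seen: breaks of the tumour's median profile with runs of at least 3 bins, and for T1 on chromosome 9 the first run of bins with an SD over cells of at least 0.25. Each tumour is 1 sample, so no test was made, and correlations over cells are Spearman's rho without a p, over cells that share library and centring with both measures. Gene positions and promoters came from RefSeq GRCm38.p6 tables. Differences of stretches from the rest, the mark of a stretch as apart and the breaks of a raised inner block were tested on simulated data. The calls in cells and the segments used for genes were not. Scripts ran under Python 3.11.15 (libraries matplotlib 3.10.9, scipy 1.17.1, pandas 2.3.3, numpy 2.4.6). Alternatives were another centring, raw depth in place of the ratio, other cell filters, thresholds and stretch lengths, weighted means, bins left out and other bins as the comparison.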

Additional observations from a re-analysis of the deposited data

How the results depend on the processing

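No pairing of cells between tumours was possible because every sample is 1 cell with a number of its own. Stretch and rest were compared within each cell. The number of stretches apart, 5 in T1, became 8 by raw depth, 1 with the stricter noise filter (4 cells), 2 with starts below 23000000, 3 with weighted means, 3 without the bins alike in all tumours, 2 without the bins of lowest weight, 2 against adjoining bins and 9 against all other autosomal bins. In T7, 0 became 2 by depth, 1 with starts below 8000000, 1 with weighted means and 2 against all other bins. In T9, 3 became 8 by depth, 0 against adjoining bins and 1 against all other bins. Stretches called, 7 in T1, became 4 with the stricter noise filter and 2 with stricter thresholds of 0.45 and -0.70. T7 had 1 in place of 2 with stricter thresholds, and T9 had 3 by depth, 2 with looser thresholds and 2 with starts below 8000000 in place of 1.

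Bins past a threshold, 17.6% in T1, became 33.9% by depth, 9.59% with the stricter filter, 5.70% with stricter and 32.6% with looser thresholds, and 12.3% without the bins of lowest weight. The 9.59% of T7 became 17.1% by depth, 3.11% with stricter and 13.5% with looser thresholds. The 6.74% of T9 became 19.2% by depth, 4.15% with stricter thresholds and 3.89% without the bins of lowest weight. The 9 bins alike in all tumours became 18 by depth, and the 4 listed genes called in T7 became 0 with stricter thresholds.

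Differences that changed sign were those of chromosome 6 against all other bins, 0.15 in T1 and 0.0444 in T9, and against adjoining bins, 0.0182 in T9. For chromosome 9 they were -0.14 in T1 against all other bins and -0.0110 in T9 against adjoining bins. For chromosome 14 in T1 they were -0.0153 with starts below 23000000, -0.0350 without the bins alike in all tumours and -0.0550 without the bins of lowest weight, and for chromosome 19 in T1 0.12 by depth. Of the steps inside T1 stretches, whose alternatives were chosen after seeing the data, depth turned those of chromosome 8 to 0.0743, chromosome 12 to 0.45 and chromosome 19 to 0.17. The cause was not tested for any of these. Of 88 differences from the rest, 62 stayed within the spread over cells, and of 110 shares of cells, 76 stayed within their interval. Depth per cell was lowest in T9 and noise highest in T1, where the stricter filter kept 4 cells.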
